A study of Mus musculus with 12 samples.

Results

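The 40 genes described here drive the cell cycle and DNA replication. They were taken by symbol from a list that was chosen with earlier results of these data known. All 40 were found in each of 2 tables, of 32285 genes in the retina and 55401 genes in cultured cells. By role, 17 belong to S phase and its onset, 15 to G2 and mitosis, and 8 regulate G1. The libraries were bulk RNA-seq from wild-type mice, 12 in all, in 4 groups of 3. Retinas were taken at day 1 after optic nerve crush (ONC), 3 given small extracellular vesicles from mesenchymal stem cells (labelled ONC+i.o.MSC.sEV) and 3 with phosphate-buffered saline (ONC+PBS). The mark i.o. is not spelled out in the labels. Samples labelled brain microvascular pericytes, marked P4, had 12 hours of vesicles (3) or of PBS (3). Both retina groups were injured, so no uninjured retina is compared.

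Retina columns carry only the short names CTR and M, which were read as PBS and vesicles by inference, so the direction of every retina difference rests on that reading. Total counts lay between 15665800 and 16842926 in vesicle retinas and between 15580024 and 16264189 in PBS retinas. In the cultured cells they lay between 34580643 and 37492365 with vesicles and between 33001248 and 37954077 with PBS. Whether replicate libraries derive from distinct animals or cultures is not labelled, so p-values measure the spread between these libraries, which may be technical. The retinas held mRNA of photoreceptors, with the transducin gene Gnat1 at 13350 CPM with vesicles and 18540 CPM with PBS (CPM, the count scaled to a fixed library total). The cells labelled pericytes had Pdgfrb, a receptor of mural cells, at 70.8 CPM with vesicles and 59.7 CPM with PBS. Of 8 pericyte markers 6 were high enough to test, and all 8 summed to between 108 and 123 CPM with vesicles and between 104 and 109 CPM with PBS. Cspg4 stood at 17.5 CPM with vesicles and 11.9 CPM with PBS, and Notch3 at 18.6 CPM with vesicles and 25.0 CPM with PBS. Rgs5, Kcnj8 and Abcc9 were near 0, with Rgs5 at 0.891 CPM with vesicles and 0.283 CPM with PBS. Olig1, a factor of the oligodendrocyte lineage, stood at 149.7 CPM with vesicles and 208 CPM with PBS in the same cells. Several other marker lists summed higher than the pericyte list, among them smooth muscle, fibroblast and astrocyte. Their lowest sums were 653, 417.6 and 1367 CPM with vesicles and 654.6, 438.8 and 1384 CPM with PBS. The lists hold different genes, so these sums do not name a cell type. For brevity these samples are called the cultured cells.

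A cell that commits to divide raises D-type cyclins, which with Cdk4 and Cdk6 phosphorylate the retinoblastoma protein and free E2F factors. E2F factors switch on cyclin E, the MCM helicase and the enzymes of DNA synthesis, while cyclin A, cyclin B and Cdk1 later drive G2 and mitosis. The inhibitors p21 (Cdkn1a) and p27 (Cdkn1b) hold the cyclin-dependent kinases back. Neurons of the adult retina do not divide, whereas cells grown in culture often do. Promoters of S phase genes are known for E2F sites. Those of mitosis genes are known for the cell cycle homology region (CHR), bound by MuvB complexes, and for CCAAT boxes, bound by NF-Y.

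The promoters of 6 members that were lower with vesicles in the cultured cells are shown, 3 of S phase (Mcm5, Mcm6 and Rrm2) and 3 of mitosis (Plk1, Cenpf and Mki67), to show windows with E2F letters, with CHR letters and with a CCAAT box alone. Each is the RefSeq window (GRCm38.p6) from 250 bases before the start to 30 after it, 5′ to 3′ on the gene's strand, and capitals mark matches to any of the searched motifs.
Mcm5 (chr8:75109259-75109538, plus strand): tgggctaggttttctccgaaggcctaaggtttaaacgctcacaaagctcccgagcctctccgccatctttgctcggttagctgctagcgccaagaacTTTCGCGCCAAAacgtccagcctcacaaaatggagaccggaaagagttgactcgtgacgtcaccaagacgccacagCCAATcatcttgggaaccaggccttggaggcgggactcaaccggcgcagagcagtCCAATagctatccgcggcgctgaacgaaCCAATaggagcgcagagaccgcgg
Mcm6 (chr1:128359676-128359955, minus strand): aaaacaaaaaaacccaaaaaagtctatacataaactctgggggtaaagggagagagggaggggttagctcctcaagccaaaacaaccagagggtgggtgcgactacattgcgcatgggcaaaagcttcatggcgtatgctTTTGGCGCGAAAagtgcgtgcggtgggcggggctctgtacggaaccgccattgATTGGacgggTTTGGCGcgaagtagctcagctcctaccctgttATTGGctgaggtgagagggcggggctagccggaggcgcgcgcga
Rrm2 (chr12:24708004-24708283, plus strand): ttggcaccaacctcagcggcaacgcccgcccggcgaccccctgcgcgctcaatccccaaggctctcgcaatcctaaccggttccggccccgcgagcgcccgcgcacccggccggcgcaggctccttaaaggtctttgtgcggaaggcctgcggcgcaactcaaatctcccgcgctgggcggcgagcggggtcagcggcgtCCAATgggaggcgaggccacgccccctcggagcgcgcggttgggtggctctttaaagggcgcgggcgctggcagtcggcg
Plk1 (chr7:122159185-122159464, plus strand): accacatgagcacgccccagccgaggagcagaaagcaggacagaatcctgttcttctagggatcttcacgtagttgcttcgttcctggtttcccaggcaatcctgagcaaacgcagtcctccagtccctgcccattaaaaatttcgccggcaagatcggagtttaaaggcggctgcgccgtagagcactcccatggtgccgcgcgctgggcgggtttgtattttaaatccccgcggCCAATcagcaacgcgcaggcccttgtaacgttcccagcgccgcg
Cenpf (chr1:189688057-189688336, minus strand): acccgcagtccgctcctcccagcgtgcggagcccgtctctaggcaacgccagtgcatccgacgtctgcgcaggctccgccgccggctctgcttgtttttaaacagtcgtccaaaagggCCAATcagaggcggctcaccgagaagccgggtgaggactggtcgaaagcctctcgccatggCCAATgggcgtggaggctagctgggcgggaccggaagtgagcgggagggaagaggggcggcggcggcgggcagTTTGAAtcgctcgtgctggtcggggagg
Mki67 (chr7:135716350-135716629, minus strand): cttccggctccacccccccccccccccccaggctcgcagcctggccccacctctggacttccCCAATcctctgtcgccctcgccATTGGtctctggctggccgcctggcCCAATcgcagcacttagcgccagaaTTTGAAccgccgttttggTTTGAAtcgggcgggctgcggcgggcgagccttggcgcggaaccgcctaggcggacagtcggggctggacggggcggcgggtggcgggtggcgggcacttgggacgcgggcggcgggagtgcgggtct

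Motifs were searched on both strands. The E2F letters were TTTGGCG, with TTTCGCG as a variant and TTTCCCG as another, the CHR letters were TTTGAA with the variant TTCGAA, and the NF-Y letters were CCAAT. RefSeq windows were matched for 33 members, 3 of them with 2 windows each. The windows of Mcm4, Gins2, Ccne2, Ccna2, Aurkb, Ccnd1 and Ccnd2 were not used here. E2F letters stood in 7 of 14 S phase genes (50%) and 2 of 13 mitosis genes (15.4%), where 5.99% of all 27025 genes of the table had them. CHR letters stood in 2 of 14 S phase genes (14.3%) and 9 of 13 mitosis genes (69.2%), against 20.9% of all genes. NF-Y letters stood in 9 of 14 S phase genes (64.3%) and 12 of 13 mitosis genes (92.3%), against 39.7% of all genes. Of the 6 G1 regulators with a window, 1 had E2F letters, 0 had CHR letters and 3 had NF-Y letters. In the printed windows, Mcm5 has 2 E2F matches that overlap each other, starting at -153 and -148 from the start, and Mcm6 has 3, of which those at -110 and -105 overlap. Cenpf has CHR letters at 3 after its start and Mki67 at -116 and -98, while Rrm2 and Plk1 have only a CCAAT box, at -50 and -14. A match describes letters only and does not show that a factor binds there.

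**Figure D1:**
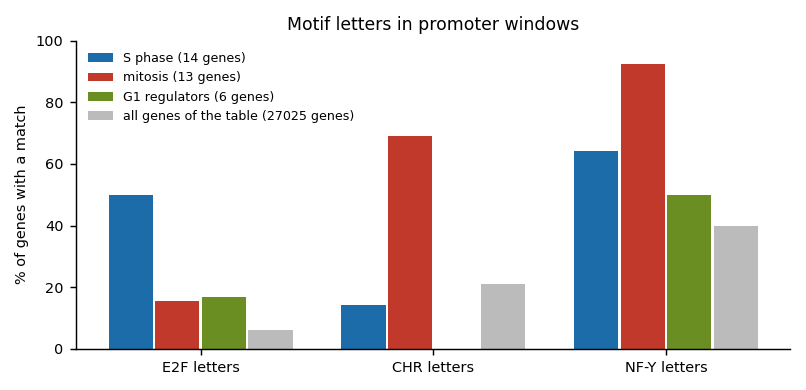
Share of genes (%) with at least 1 match in the promoter window, for E2F, CHR and NF-Y letters, by role and for all genes of the RefSeq table. Bars show E2F letters in 50% of S phase genes and CHR letters in 69.2% of mitosis genes, against 5.99% and 20.9% of all genes.

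With vesicles, the cultured cells held less mRNA of 9 S phase genes and 4 mitosis genes. At the same time they held more mRNA of the inhibitor p21 and of 2 D-type cyclins. Of the 40 members, 13 fell and 3 rose (edgeR quasi-likelihood test, Benjamini-Hochberg adjusted p under 0.05 over 16975 genes). Across all genes tested there, 19.8% were called, 8.9% lower and 10.9% higher, while 32.5% of the members were lower and 7.5% higher. Over all genes this was 1855 higher and 1510 lower, or 1558 and 1955 with upper-quartile scaling. Libraries of the groups did not overlap for 24 of the 40 members, 60% of them, where 33.8% of all tested genes had none. Because the list was chosen with earlier results of these data known, these shares are a description and not a test. The falls were small, with log2 fold changes (vesicles minus PBS) from -0.44 to -0.20 among the 13. In bulk libraries, fewer cells in cycle and less mRNA per cell cannot be told apart.

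At the adjusted threshold, 9 of the 17 S phase genes were lower and 0 higher. Their median log2 fold change was -0.24, where the median of all tested genes was 0.00. How S phase compares with mitosis depends on the cutoff. At unadjusted p under 0.05 in the same test, 11 of 17 S phase and 11 of 15 mitosis genes were lower. Libraries of the groups did not overlap for 9 of the 17 S phase genes and 11 of the 15 mitosis genes. Of the 17, 15 had a log2 fold change below 0. The MCM helicase unwinds DNA at replication forks, and 4 of its 6 subunit genes fell. Mcm5 was at 77.3, 76.6 and 74.3 CPM in the vesicle libraries and 90.7, 93.5 and 88.1 CPM in the PBS libraries (log2 fold change -0.26 ± 0.0584 SE, adjusted p = 0.00312). All vesicle libraries lay below all PBS libraries. Mcm4 was at 87.7, 80.9 and 79.6 CPM with vesicles and 99.9, 99.7 and 93.6 CPM with PBS (log2 fold change -0.24 ± 0.0609, adjusted p = 0.00684). Mcm2 had 87.8, 93.5 and 77.0 CPM with vesicles and 99.5, 108 and 103 CPM with PBS (-0.27 ± 0.0685, adjusted p = 0.00764). For Mcm6 the vesicle libraries held 122, 117 and 122 CPM and the PBS libraries 136, 136 and 144 CPM (-0.20 ± 0.0549, adjusted p = 0.0114). In each of these 4 the groups stood apart. Mcm3 and Mcm7 did not pass, at log2 fold changes of -0.09 (adjusted p = 0.334) and -0.07 (adjusted p = 0.501), with overlapping libraries.

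Rrm2, the small subunit of ribonucleotide reductase that makes deoxynucleotides in S phase, was at 119, 120 and 121 CPM with vesicles and 145, 152 and 142 CPM with PBS. Its fall (log2 fold change -0.29 ± 0.0545, adjusted p = 0.000494) had the smallest p of the S phase genes. The large subunit Rrm1 had 268, 241 and 243 CPM with vesicles and 234, 247 and 249.7 CPM with PBS, overlapping groups (0.04 ± 0.0583, adjusted p = 0.721). E2f1, a transcription factor of S phase genes, had 37.1, 38.1 and 35.0 CPM with vesicles and 47.3, 47.4 and 46.1 CPM with PBS. It fell by 0.35 on the log2 scale (SE 0.0700, adjusted p = 0.000818), and the groups were clearly apart. Ccne2, a cyclin E that starts S phase with Cdk2, had 11.5, 10.5 and 11.8 CPM with vesicles and 13.4, 15.1 and 17.4 CPM with PBS (-0.44 ± 0.117, adjusted p = 0.00973). This was the largest of the 13 falls. The other cyclin E gene, Ccne1, had 12.0, 10.3 and 11.9 CPM with vesicles and 13.2, 15.5 and 13.9 CPM with PBS, with no overlap but just above the threshold (-0.32 ± 0.113, adjusted p = 0.0536).

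Among the origin and polymerase genes, Cdc6, which loads the helicase, had 12.4, 12.7 and 12.7 CPM with vesicles and 15.3, 16.4 and 16.4 CPM with PBS (log2 fold change -0.35 ± 0.101, adjusted p = 0.0173). Pola1, the catalytic subunit of the polymerase that primes synthesis, had 43.3, 35.96 and 39.1 CPM with vesicles and 42.7, 53.04 and 49.0 CPM with PBS. It was called (-0.29 ± 0.0858, adjusted p = 0.0192) although vesicle library 1 lay above PBS library 1. The sliding clamp Pcna had 209, 196 and 183 CPM with vesicles and 205, 227 and 219.7 CPM with PBS, and did not pass (-0.15 ± 0.0613, adjusted p = 0.0972). Tyms, which makes thymidylate, Cdt1, the partner of Cdc6, and Gins2, a part of the helicase complex, also did not pass, with log2 fold changes from -0.09 to 0.01.

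Of the 15 mitosis genes 4 fell and 0 rose, with a median log2 fold change of -0.17. All 15 fold changes lay below 0, and for 11 genes every vesicle library lay below every PBS library. The difference between the S phase and mitosis medians was not tested. Cenpf, a kinetochore protein, had 67.0, 66.0 and 86.9 CPM with vesicles and 89.3, 102 and 97.5 CPM with PBS (-0.39 ± 0.0855, adjusted p = 0.002). Vesicle library 3 was the highest of its group and just under the lowest PBS library. Ccna2, the cyclin of S phase and G2, had 75.1, 71.0 and 75.1 CPM with vesicles and 87.0, 92.6 and 89.3 CPM with PBS (-0.28 ± 0.0596, adjusted p = 0.00146). Plk1, a kinase of mitotic entry and spindle assembly, had 41.0, 46.0 and 43.0 CPM with vesicles and 51.2, 50.6 and 51.6 CPM with PBS (-0.24 ± 0.0688, adjusted p = 0.0168). Ccna2 and Plk1 had no overlap between the groups.

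Mki67, the proliferation antigen Ki-67, had 196, 186 and 232 CPM with vesicles and 223, 245 and 240.1 CPM with PBS. Its call (-0.20 ± 0.0706, adjusted p = 0.0467) was near the threshold and the groups overlapped through vesicle library 3. Top2a, the topoisomerase that untangles chromosomes, had 326, 307 and 327 CPM with vesicles and 337, 366 and 349 CPM with PBS, apart but not called (-0.13 ± 0.0566, adjusted p = 0.115). The other 10 mitosis genes did not pass. These were the B-type cyclins Ccnb1 and Ccnb2, their kinase Cdk1, the kinases Aurka, Aurkb, Bub1 and Bub1b, the anaphase activator Cdc20, the survivin gene Birc5 and the spindle motor Kif11. Their log2 fold changes ran from -0.22 (Aurka) to -0.07 (Cdk1), with adjusted p from 0.0615 for Cdc20 to 0.568 for Cdk1.

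G1 regulators went the other way or did not pass, with 3 of 8 higher and 0 lower. Cdkn1a, which encodes p21, had 325, 325 and 314 CPM with vesicles and 264, 246 and 259 CPM with PBS (log2 fold change 0.33 ± 0.0551, adjusted p = 0.000159). It had the smallest p of all 40 members, and the groups were far apart for their spread. Ccnd1, the D-type cyclin with the highest level, had 1119, 1051 and 1042 CPM with vesicles and 944, 889.5 and 863 CPM with PBS (0.25 ± 0.0581, adjusted p = 0.0032). Ccnd3 had 80.6, 86.2 and 77.4 CPM with vesicles and 72.1, 71.9 and 68.4 CPM with PBS (0.20 ± 0.0624, adjusted p = 0.0262). All vesicle libraries exceeded all PBS libraries for both cyclins. The cyclin Ccnd2, at 394, 401 and 425 CPM with vesicles and 440.2, 447 and 433 CPM with PBS, did not pass (-0.11 ± 0.0552, adjusted p = 0.17), nor did Cdk2, Cdk4, Cdk6 or the p27 gene Cdkn1b, with log2 fold changes from -0.06 to 0.12.

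**Figure D2:**
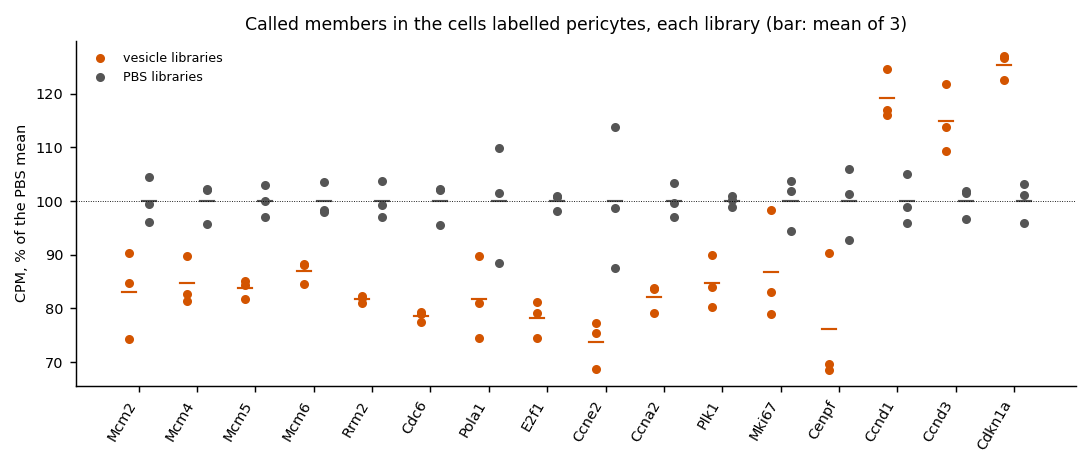
CPM of each library as a percentage of the PBS mean, for the 16 members called in the cells labelled pericytes, with vesicle libraries in orange left of PBS libraries in grey and a bar at the mean of 3. For the 13 lower genes all vesicle libraries lie below the dotted line at the PBS mean, with overlap of the groups in Pola1 and Mki67, and for Ccnd1, Ccnd3 and Cdkn1a all lie above it.

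Related replication and mitosis genes outside the 40 mostly lay below 0 in the cultured cells, though most did not pass. Of 40 other replication genes, 0 rose and 8 fell (median log2 fold change -0.18), and of 43 other mitosis genes, 0 rose and 7 fell (median -0.13), where 10.9% of all tested genes rose and 8.9% fell. Fold changes were below 0 for 36 and 38 of them. Every vesicle library lay below every PBS library for 19 and 15, and above for 0, where 33.8% of all tested genes had no overlap in either direction. Clspn, a checkpoint mediator at forks, had 29.4, 28.5 and 29.3 CPM with vesicles and 34.0, 41.6 and 36.4 CPM with PBS (-0.36 ± 0.0833, adjusted p = 0.00325). Prim1, a primase subunit, fell by 0.35 (adjusted p = 0.00536) and Spc24, a kinetochore protein, by 0.38 (adjusted p = 0.00548) on the log2 scale. Of 19 other G1 regulators, 3 rose and 3 fell. Cdkn2b, the inhibitor p15 of Cdk4 and Cdk6, had 161, 161 and 155 CPM with vesicles and 67.2, 65.4 and 65.6 CPM with PBS (1.27 ± 0.0558, adjusted p = 2.48e-13). Its libraries were far apart, and its change exceeded that of any of the 40. Cdkn2a rose by 0.33 (adjusted p = 0.00135), Myc, a growth-promoting transcription factor, by 0.70 (adjusted p = 3.57e-06), while its relative Mycn, at 1.43, 1.59 and 1.08 CPM with vesicles and 3.97, 3.18 and 4.46 CPM with PBS, fell by 1.5 (adjusted p = 0.00011).

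Targets of p53, the family in which Cdkn1a is best known, were also described. Of 15 others, 7 rose and 1 fell, with a median of 0.20, where 10.9% of all tested genes rose and 8.9% fell. Fas, a death receptor, had 246, 216 and 232 CPM with vesicles and 117, 117 and 120.2 CPM with PBS (0.97 ± 0.0584, adjusted p = 5.51e-11). Phlda3 rose by 0.46 (adjusted p = 6.62e-06) and Eda2r by 0.69 (adjusted p = 5.25e-07), while Sesn1 fell by 0.42 (adjusted p = 1.99e-05). Markers of the oligodendrocyte lineage moved with the falls, with 3 of the 5 tested lower and 0 higher. Their 8 genes summed to between 391 and 451 CPM with vesicles and between 531 and 546 CPM with PBS, and none was at 0 in all libraries. Schwann or neural crest markers, 2 of 5 tested lower, summed to between 151 and 158 CPM with vesicles and between 173 and 182 CPM with PBS. Retinal progenitor markers, 0 of 4 tested lower, summed to between 460.5 and 473 CPM with vesicles and between 497 and 528 CPM with PBS. The part of these lists in the falls was not tested. Markers of monocytes and macrophages, 3 of 8 tested higher, summed to between 96.9 and 144.5 CPM with vesicles and between 83.3 and 89.8 CPM with PBS, with Ccr2 at 0.

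How firmly the falls stand depends on the library left out. Without PBS library 2 or 3 the members called lower numbered 8 and 7 instead of 13, and 21 with upper-quartile scaling. Mcm4, Mcm5, Rrm2, E2f1, Ccna2, Ccnd1 and Cdkn1a kept their call under all 11 alternatives, while Pola1 and Mki67 each lost it without vesicle library 2 and without PBS library 2 or 3, Pola1 also without vesicle library 3 and Mki67 without vesicle library 1 (adjusted p from 0.0552 to 0.154 and from 0.173 to 0.224). Ccnd3 lost it without vesicle library 2, without any 1 PBS library and with upper-quartile scaling (from 0.0567 to 0.15). Plk1 lost its call without any 1 of the PBS libraries (from 0.0504 to 0.0768), Cdc6 without PBS library 2 (0.0675) or 3 (0.0735), Mcm2 without PBS library 2 (0.0626), Mcm6 and Ccne2 without PBS library 3 (0.1 and 0.0977), and Cenpf without vesicle library 1 (0.073).

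Levels in the crushed retina were read per kilobase of exon for a rough comparison of genes. The length was that of all annotated exons of a gene merged, which can exceed the expressed transcript. Ranks therefore depend on the annotation. Rrm1, at 11012 bases, ranks below Mcm7, at 4426 bases. By CPM alone Rrm1 was higher, at 65.6 against 31.5 with vesicles and 58.5 against 32.9 with PBS. Means are given with vesicles, then with PBS. Pcna had 132 and 127 CPM per kb and stood far above the next S phase genes, Mcm7 at 7.11 and 7.44, Mcm4 at 6.05 and 3.69, Rrm1 at 5.96 and 5.32 and Ccne2 at 5.07 and 5.49. Rrm2, which dividing cells need, was at 0.304 and 0.397 CPM per kb. Among mitosis genes, Bub1b had 15 and 13.8 CPM per kb and Ccna2 3.6 and 5.13, while the other 13 lay between 0.0326 (Cenpf) and 1.12 (Aurka) with vesicles and between 0.0389 and 1.17 with PBS. No retina library held more than 86 counts of any of those 13, and Aurkb, at 0 to 6 counts, was too low to test. Of the G1 regulators, Cdkn1b had 26.5 and 24.5 CPM per kb and Cdk4 20.9 and 16.5, and Ccnd3 at 6.92 and 4.23 was above Ccnd1 at 3.67 and 3.50.

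In the cultured cells, on the same scale with its own library totals, Ccnd1 had 227 CPM per kb with vesicles and 191 with PBS, against 9.27 and 8.07 for Ccnd3. Mitosis genes lay there between 4.75 (Cenpf) and 35.5 (Top2a) CPM per kb with vesicles and between 6.24 and 38.9 with PBS. The tables list different gene classes, so a level in one is not compared with a level in the other. The order of genes within each is compared, with the same limit of merged exon length. Bub1b, first among the mitosis genes in the retina, had 9.91 and 10.9 CPM per kb in the cultured cells, below most of them.

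**Figure D3:**
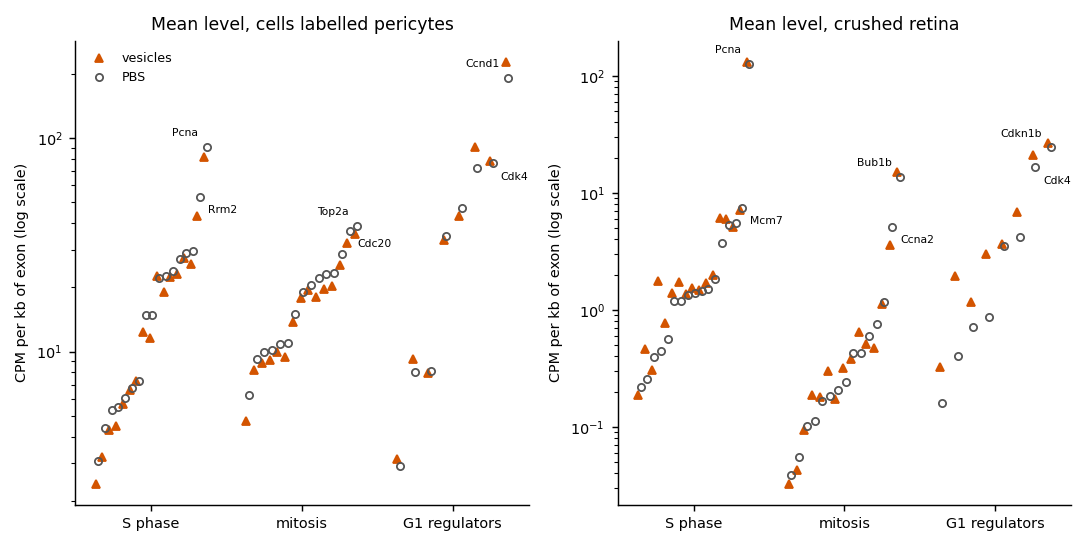
Mean CPM per kb of exon (log scale) of the 40 members with vesicles (triangles) and PBS (circles), ordered within each role by the PBS level, in the cells labelled pericytes (left) and the crushed retina (right). The highest 2 genes of each role are named, and in the retina Pcna and Bub1b stand far above the rest of their roles.

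Few of the 40 differed in the retina with vesicles, where 4 rose and 1 fell among the 39 tested (12.8% called, against 15.9% of all 15440 genes tested, 10.7% higher and 5.19% lower). The 4 that rose were the replication genes Mcm4 and Gins2 and the G1 regulators Ccnd3 and Cdkn1a, and Ccna2 fell. Libraries of the groups did not overlap for 13 of the 39 (33.3%), where 35.7% of all genes had none. Medians of log2 fold change were 0.15 for S phase genes, -0.10 for the 14 tested mitosis genes and 0.71 for G1 regulators, beside -0.02 for all genes tested.

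Cdkn1a, the p21 gene, had 10.7, 12.3 and 8.89 CPM in vesicle retinas and 2.61, 2.13 and 4.57 CPM in PBS retinas (log2 fold change 1.77 ± 0.3, adjusted p = 0.00413). Every vesicle retina was above every PBS retina. Ccnd3, a D-type cyclin, had 63.4, 66.4 and 52.3 CPM with vesicles and 31.7, 37.5 and 42.4 CPM with PBS (0.71 ± 0.136, adjusted p = 0.00739), again with no overlap. These 2 and Gins2 stayed called under all 11 alternatives. Gins2 had 7.71, 9.48 and 4.51 CPM with vesicles and 2.15, 1.82 and 1.5 CPM with PBS (1.98 ± 0.328, adjusted p = 0.00376). Its exons share 2758 of 4097 bases with Gse1 on the other strand (GENCODE M21), and the labels do not say whether libraries kept strand. Gse1 itself was at 10.3, 6.70 and 9.63 CPM with vesicles and 7.96, 12.8 and 12.7 CPM with PBS, overlapping groups that were not called (-0.33 ± 0.241, adjusted p = 0.391).

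Mcm4, a helicase subunit, had 22.2, 25.6 and 17.4 CPM in vesicle retinas and 12.8, 12.7 and 14.2 CPM in PBS retinas (0.71 ± 0.163, adjusted p = 0.0165). The other 5 MCM genes did not pass, with log2 fold changes from -0.06 (Mcm7) to 0.23 (Mcm3). Mcm2, for example, had 13.5, 15.99 and 12.1 CPM with vesicles and 13.1, 13.3 and 12.2 CPM with PBS (0.11 ± 0.155, adjusted p = 0.676), and its groups overlapped. Ccna2 had 14.0, 14.0 and 16.1 CPM with vesicles and 21.7, 20.4 and 20.7 CPM with PBS (-0.51 ± 0.127, adjusted p = 0.0236), all vesicle retinas being below all PBS retinas. It shares 510 of 4083 exonic bases with Exosc9 on the other strand, which had a log2 fold change of 0.17 (adjusted p = 0.418). Mcm4 lost its call without vesicle library 1 or 2 or PBS library 2 (adjusted p from 0.0628 to 0.0741), and Ccna2 without vesicle library 1 or 2 or PBS library 2 or 3 (from 0.0546 to 0.0999).

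Several other G1 regulators were higher in every vesicle retina without passing the test. In 7 of the 8 no PBS retina reached the lowest vesicle retina, Ccnd1 being the exception, while 35.7% of all tested genes had no overlap in either direction. Ccnd2, a D-type cyclin, had 20.8, 27.7 and 6.54 CPM with vesicles and 2.15, 4.195 and 5.05 CPM with PBS (2.27 ± 0.600, adjusted p = 0.0561). Vesicle library 3 was close to the PBS retinas, and the gene was called without that library (adjusted p = 0.000747) and by DESeq2 (0.00563). Cdk6 had 3.63, 6.13 and 3.77 CPM with vesicles and 2.68, 1.46 and 2.58 CPM with PBS (1.01 ± 0.340, adjusted p = 0.0752). For Cdk2 and Cdk4 the log2 fold changes were 0.70 (adjusted p = 0.094) and 0.34 (0.113), and for Cdkn1b 0.12 (0.384). Ccnd1 had 14.9, 20.9 and 15.99 CPM with vesicles and 13.8, 16.7 and 18.9 CPM with PBS, overlapping groups (0.07 ± 0.176, adjusted p = 0.833).

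Among the remaining S phase genes, Pcna had 327, 296 and 326 CPM in vesicle retinas and 353, 277 and 285 CPM in PBS retinas, with overlap (0.05 ± 0.112, adjusted p = 0.781). Tyms had 9.75, 12.6 and 9.45 CPM with vesicles and 7.57, 6.57 and 7.75 CPM with PBS, apart but not called (0.54 ± 0.192, adjusted p = 0.0888). E2f1 was low, at 1.72, 1.45 and 1.24 CPM with vesicles and 0.849, 0.669 and 0.901 CPM with PBS (0.86 ± 0.363, adjusted p = 0.144). The rest of S phase, namely Rrm1, Rrm2, Cdc6, Cdt1, Pola1, Ccne1 and Ccne2, had overlapping groups and log2 fold changes from -0.39 (Rrm2) to 0.44 (Cdt1).

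Apart from Ccna2 and Plk1, the groups overlapped for every mitosis gene in the retina. Top2a had 1.40, 4.68 and 1.98 CPM with vesicles and 1.31, 1.28 and 2.34 CPM with PBS (0.70 ± 0.486, adjusted p = 0.366). Mki67 had 0.637, 1.08 and 1.11 CPM with vesicles and 0.653, 0.304 and 2.10 CPM with PBS (-0.12 ± 0.639, adjusted p = 0.921). Vesicle library 2 was highest of its group for Ccnb1, Ccnb2, Cdk1, Aurkb, Bub1, Cdc20, Top2a, Birc5, Kif11 and Cenpf. It was not for Ccna2, Plk1, Aurka, Bub1b or Mki67. PBS library 3 was highest of its group for the same genes and for Aurka and Mki67, but not for Ccna2, Plk1 or Bub1b. Rrm2 of S phase had the same peaks, with 5, 32 and 3 counts with vesicles and 10, 5 and 39 counts with PBS. Plk1, at 1.02, 1.01 and 1.05 CPM with vesicles and 1.76, 2.07 and 1.14 CPM with PBS, had no overlap but did not pass (-0.69 ± 0.364, adjusted p = 0.238). Bub1b, the most abundant, had 66.8, 59.7 and 66.1 CPM with vesicles and 66.9, 51.6 and 58.6 CPM with PBS (0.12 ± 0.113, adjusted p = 0.514). SEs of the low mitosis genes ran up to 0.79 for Birc5, with 4, 34 and 14 counts with vesicles and 12, 4 and 24 counts with PBS. Kif11, at 17, 29 and 18 counts with vesicles and 15, 20 and 25 counts with PBS, had an SE of 0.381.

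Markers of several cell types moved with these retina values. Markers of monocytes and macrophages rose for 11 of 12 genes, none at 0, and summed to 986, 964 and 661 CPM in vesicle retinas and 93.5, 61.3 and 104.8 CPM in PBS retinas. All 7 tested neutrophil markers rose too, and the list summed to 647, 802.5 and 366 CPM with vesicles and 19.1, 13.5 and 25.5 CPM with PBS. Of 7 rod markers 5 fell and 0 rose (median log2 fold change -0.47), among them Gnat1 at -0.47 (adjusted p = 0.0103), and every vesicle retina lay below every PBS retina for all 7. Of 8 microglia markers 4 fell and 1 rose, with Siglech at -3.26 (adjusted p = 0.000443) and P2ry12 at -1.40 (adjusted p = 0.00278). Lens mRNAs, 15 genes, took 1.84%, 7.03% and 0.0116% of counts in the vesicle libraries and 0.672%, 0.0709% and 0.0619% in the PBS libraries. The order of the vesicle libraries, 2 above 1 above 3, was the same for lens mRNAs, neutrophil markers, Gins2, Mcm4, Ccnd3, Cdkn1a and Ccnd2. Summed markers of smooth muscle and of Schwann or neural crest cells had that order too. Those of monocytes and macrophages, and of fibroblasts, ran 1 above 2 above 3. Among the PBS libraries lens mRNAs were highest in library 1, as was Gins2, while Mcm4, Ccnd3, Cdkn1a, Ccnd2 and the neutrophil markers were highest in library 3. Without the lens-richest library of each group (vesicle 2 and PBS 1), Gins2, Cdkn1a and Ccnd3 stayed called. Mcm4 (0.57, adjusted p = 0.0914) and Ccna2 (-0.44, 0.124) lost their call in that fit, which kept only 2 libraries per group. Ccnd2 (1.57, 0.206) was not called there, nor with all libraries (0.0561). Mcm4 and Ccna2 also lost their call without PBS library 2 alone, which held 0.0709% lens counts. The part of leukocytes, rods and microglia in these differences was not tested.

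**Figure D4:**
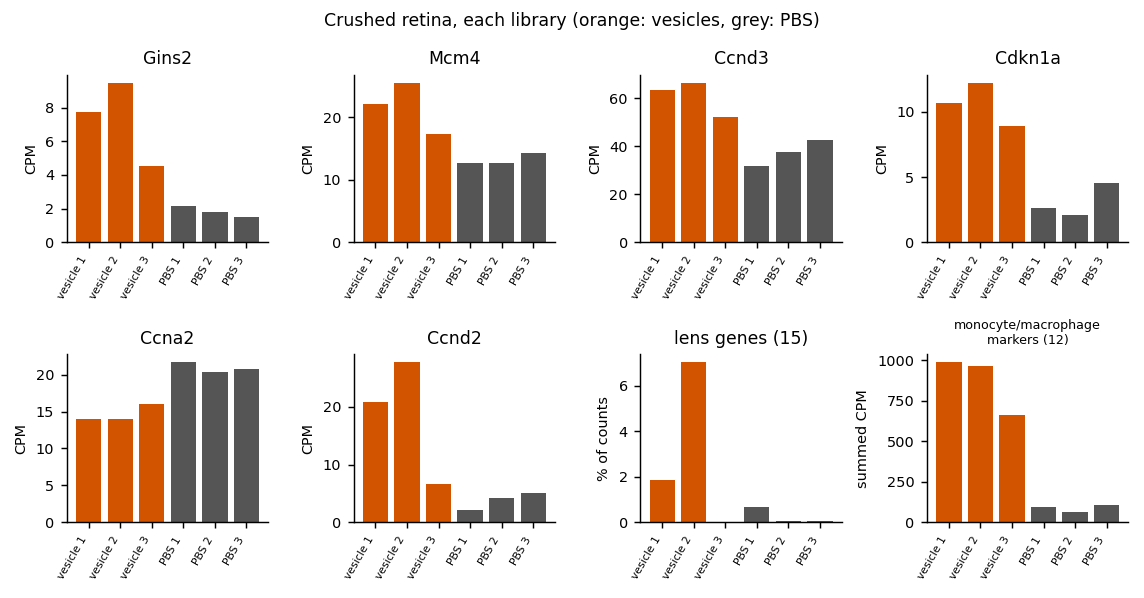
CPM of Gins2, Mcm4, Ccnd3, Cdkn1a, Ccna2 and Ccnd2 in each crushed retina library (vesicles orange, PBS grey), beside the share of counts from 15 lens genes (%) and the summed CPM of 12 monocyte and macrophage markers. Vesicle library 2 holds 7.03% lens counts, and vesicle library 3 is the lowest of its group for Gins2, Mcm4, Ccnd3, Cdkn1a and Ccnd2.

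Related genes in the retina mostly did not pass. Across all 15440 genes tested there, 10.7% rose and 5.19% fell. Of 34 tested other replication genes 1 rose and 1 fell (median -0.04), and of 32 tested other mitosis genes 3 rose and 1 fell (median 0.10). Pola2, a polymerase subunit, had 14.4, 12.5 and 9.69 CPM with vesicles and 5.87, 7.11 and 7.45 CPM with PBS (0.84 ± 0.204, adjusted p = 0.0219). Cdc7, a kinase that fires origins, had 27.3, 28.0 and 28.0 CPM with vesicles and 43.6, 39.8 and 32.9 CPM with PBS (-0.48 ± 0.125, adjusted p = 0.0287). Cenpe, a kinetochore motor, rose by 0.82 (adjusted p = 0.0177) and Cks2, a kinase subunit, by 0.78 (0.0174). Knl1, a kinetochore scaffold, rose by 1.88 (0.0308), whereas Kif4, a chromosome motor, fell by 1.22 (0.016). The Knl1 rise rests on few counts, 18, 11 and 12 with vesicles and 4, 3 and 4 with PBS. Of 18 tested other G1 regulators 3 rose and 0 fell, led by E2f6, a repressor of the E2F family. E2f6 had 93.5, 94.0 and 77.2 CPM with vesicles and 26.6, 26.2 and 30.2 CPM with PBS (1.67 ± 0.114, adjusted p = 5.9e-05). Cdkn2c, the inhibitor p18, rose by 0.83 (adjusted p = 0.00316) and Myc by 2.42 (adjusted p = 0.0311). Counts of Myc were also few, at 19, 37 and 19 with vesicles and 1, 3 and 10 with PBS. Of the 15 other p53 targets 5 rose and 1 fell, Sesn1 by 0.51 (adjusted p = 0.0143). Fas had 48.4, 44.5 and 29.6 CPM with vesicles and 2.15, 1.22 and 1.26 CPM with PBS (4.73 ± 0.279, adjusted p = 5.8e-05). Phlda3, Eda2r, Aen and Plk2 also rose. Mdm2 (0.08, adjusted p = 0.715), Ccng1 (0.02, 0.927), Btg2 (0.005, 0.981), Bax (-0.14, 0.448) and Bbc3 (-0.59, 0.362) were not called. Zmat3, Sesn2, Trp53inp1 and Gdf15 were not called either.

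**Figure D5:**
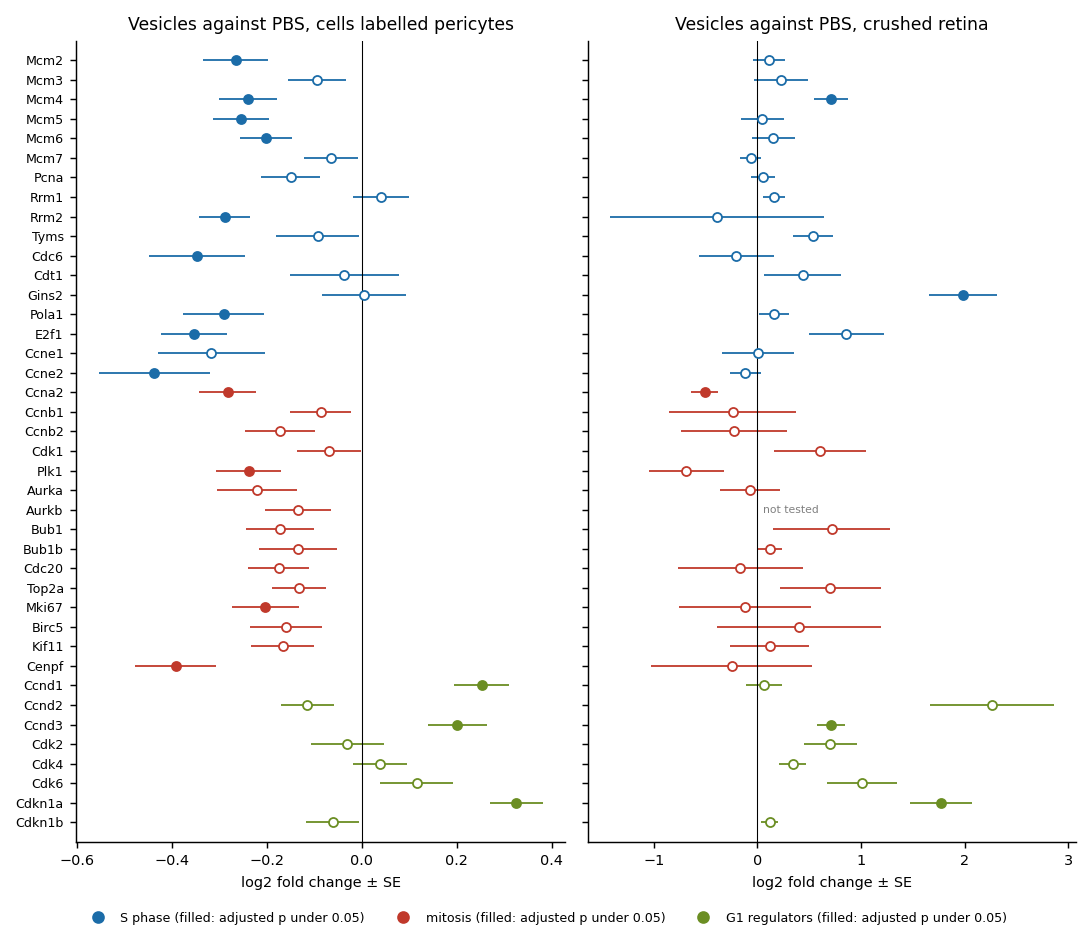
Log2 fold change (vesicles minus PBS) ± SE of each member in the cells labelled pericytes (left) and the crushed retina (right), coloured by role, with filled points at adjusted p under 0.05. The S phase and mitosis points lie between -0.44 and 0.04 on the left and between -0.69 and 1.98 on the right. With the G1 regulators the points reach 0.33 on the left and 2.27 on the right. Aurkb was not tested on the right.

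The vesicle effects in the retina and in the cultured cells were set against each other gene by gene, as a difference of the within-table log2 fold changes (limma with a weight per table, adjusted over 13712 genes, of which 12.2% were called). Of the 39 members tested, 4 differed, and in all 4 the retina value was the higher. For Mcm4 (ENSMUSG00000022673) the directions were opposite, a log2 fold change of 0.71 in the retina and -0.24 in the cultured cells (difference 0.94 ± 0.183, adjusted p = 0.00207). Gins2 (ENSMUSG00000031821) was at 1.98 in the retina and 0.01 in the cultured cells (difference 1.92 ± 0.411, adjusted p = 0.00399). Cdkn1a (ENSMUSG00000023067) rose in both, by 1.77 in the retina and 0.33 in the cultured cells (difference 1.5 ± 0.291, adjusted p = 0.00204). Ccnd3 (ENSMUSG00000034165) also rose in both, by 0.71 and 0.20 (difference 0.50 ± 0.141, adjusted p = 0.0227). Ccna2 fell in both, by 0.51 in the retina and 0.28 in the cultured cells, and the difference did not pass (-0.23 ± 0.156, adjusted p = 0.394). For E2f1, lower in the cultured cells, the difference was 1.195 ± 0.437 (adjusted p = 0.0841), and apart from Mcm4 it did not pass for the other called falls of the cultured cells either.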

How the data were processed

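Raw counts per gene were deposited in 2 tables and not normalized. Per the submitters' processing notes, the authors used FastQC 0.11.8, HISAT2 2.0.5, featureCounts 1.5.0-p3 and limma. The genome build, annotation and strand setting are not given in the sources used here. Columns of cultured cells were matched to samples by their descriptions. No batch is given. Libraries of a group differed by more than sampling noise (chi-squared per degree of freedom at least 6.12), so none was counted as a copy.

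Each table was fitted alone in R 4.3.3 with edgeR 4.0.16: filterByExpr with a minimum count of 10, TMM scaling, robust quasi-likelihood F test, 2-sided, Benjamini-Hochberg adjusted p over all tested genes, called under 0.05. The SE was derived from F as the absolute log2 fold change over its root. With 3 against 3 libraries an exact test per gene could not pass, so p-values come from these models. The difference between settings used limma 3.58.1 (voom). DESeq2 1.42.0 was an alternative. The fit was also run on simulated counts with planted changes. These were planted only in genes above a minimum mean count, so recovery of changes in the rarest genes was not checked. Exon lengths and overlaps came from GENCODE M21, matched by Ensembl ID for all 40. Of the 40 members, 14 share exonic bases with another gene.

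Members, roles and gene lists were chosen with earlier results of these data known. The rule named all members, gave every library for up to 12 called members per table in order of p, and named up to 4 genes per further list and table. The other called members of the cultured cells, and uncalled members shown for contrast, were added after their values were seen.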

Additional observations from a re-analysis of the deposited data

Results flagged for a closer look

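For 4 of the 39 members tested the vesicle effect differed between the crushed retina and the cultured cells by a test of the difference itself (limma, adjusted p over all genes tested in both tables). Of all 13712 genes in that test, 12.2% were called. The log2 difference, retina minus cultured cells, was 1.496 for Cdkn1a, 0.94 for Mcm4, 1.92 for Gins2 and 0.50 for Ccnd3. Over 15 alternatives the first 3 passed each time, with differences from 1.25 to 1.81, from 0.78 to 1.07 and from 1.69 to 2.21. Ccnd3 passed in 8 of the 15, with differences from 0.33 to 0.60 and adjusted p from 0.00632 to 0.163. Retina and cultured cells also differ in injury, time and cell makeup, which cannot be told apart here.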

How the results depend on the processing

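Without the lens-richest retina library of each group, which left 2 libraries in each, 1420 genes were called in the retina instead of 2449. In that fit 0 members were lower instead of 1. With 1 library left out, the retina gave between 1328 and 2909 called genes, 3 to 6 members higher and 0 to 1 lower. It called 1401, 1381 and 1328 genes without vesicle library 1, vesicle library 2 and PBS library 2. In the cultured cells such fits gave between 7 and 14 members lower and 2 to 3 higher, and upper-quartile scaling gave 21 lower. The retina median of mitosis genes ran from -0.32 to 0.24 over these fits, so its sign is not fixed. Top2a in the retina was at -0.0836 and Ccnd1 at -0.19 without the lens-richest libraries, against 0.70 and 0.07 with all libraries. Uncalled retina values also changed sign with 1 library left out, over -0.56 to 0.97 for Mki67, -0.00683 to 0.20 for Mcm2, -0.0949 to 0.172 for Ccnd1 and -0.0126 to 0.171 for Pcna. The cause was not tested. The replicate block in the cultured cells called 3287 genes, with 13 members lower and 3 higher, and changed no member's call. Same-numbered libraries there had deviations that correlated at 0.03, 0.02 and -0.02, so no shared effect of a number was seen. Whether they were prepared in pairs is not labelled, and this check cannot tell. No paired analysis was possible in the retina because its columns carry no sample number of the labels. For single members under the other alternatives, 115 values in the cultured cells kept direction and side of the threshold, 9 gained a call and 1 lost it, and in the retina 75 kept both, 1 gained, 2 lost and 2 changed sign. With 1 library left out, 124, 5 and 21 did so in the cultured cells, and in the retina 81 kept both, 2 gained, 7 lost and 6 changed sign. Counts of 13 retina mitosis genes did not exceed 86 in any library.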
